A study of Mus musculus with 16 samples.

Results

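Exonic peaks are places of open chromatin that the authors' annotation put inside an exon, away from the start of the gene. They were taken from 16 ATAC-seq peak lists of mouse spermatogenic cells by their region name, after lines with equal coordinates had been joined, on chromosomes 1 to 19. There were 63150 exonic peaks of 1088665 in all, beside 341689 intron, 314082 intergenic, 119493 upstream and 250251 promoter peaks. The libraries were made from C57BL/6 testes in 4 stages and 2 genotypes, with 2 libraries in each of the 8 groups. Scml2-KO and wild-type mice gave Thy1+ spermatogonia (Thy1), which hold stem and progenitor cells, and c-Kit+ differentiating spermatogonia (cKit), each at postnatal day 7 (P7). Adult Scml2-KO and wild-type mice gave pachytene spermatocytes (PS) and round spermatids (RS). No other allele or agent is named in the labels, nor which part of Scml2 was deleted. A library took about 500000 cells for Thy1 and cKit, 250000 for PS and 1000000 for RS. Because spermatogonia came only at P7 and the later cells only from adults, stage, age and cell input cannot be told apart between them, nor stage and cell input between PS and RS. Nothing in the labels ties replicates to separate mice, so the p-values reflect only how far these libraries differ, which may be technical variation.

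ATAC-seq uses the transposase Tn5 to cut and tag DNA that is not wrapped tightly around nucleosomes. Open sites lie mostly at promoters and enhancers, but exons also hold them: alternative promoters, enhancers embedded in coding sequence and the starts of overlapping genes are known examples. Spermatogenesis passes through meiosis, in which PS pair and recombine their chromosomes, to RS, the haploid cells that later replace most histones with protamines. SCML2 is a germ cell protein related to the Polycomb group, known for its action on the sex chromosomes and on the gene program of spermatogonia during meiosis.

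An exonic peak of one transcript can sit on the start of another. Peaks of all libraries that overlapped were merged into regions, and a region was called exonic where more than 50% of its peaks had that name. Of 21980 exonic regions, 205 (0.933%) overlapped the window from 250 bases before to 50 after a start in the RefSeq table of GRCm38.p6. The share was 19 of 120 (15.8%) among exonic regions with a peak in all 16 libraries. The 4 windows printed here belong to regions of the strongest groups, and are shown because each is an exon of one gene in the authors' annotation and a start in RefSeq. Capitals mark GGGCGG, the letters bound by Sp1-like factors, and CCAAT, those bound by NF-Y, on either strand. Dhcr7 (chr7:143829964-143830263, plus strand) was open in all 16 libraries. The window of 4930538E20Rik (chr11:24172732-24173031, minus strand, in an exon of Bcl11a) was open only in adult libraries. That of Gm30400 (chr10:78746880-78747179, plus strand, in an exon of Ccdc105) was open only in P7 libraries, and that of H2bc6 (chr13:23585921-23586220, minus strand, in an exon of the transcript named Hist1h2be) in 8 P7 libraries and 1 adult library.
Dhcr7: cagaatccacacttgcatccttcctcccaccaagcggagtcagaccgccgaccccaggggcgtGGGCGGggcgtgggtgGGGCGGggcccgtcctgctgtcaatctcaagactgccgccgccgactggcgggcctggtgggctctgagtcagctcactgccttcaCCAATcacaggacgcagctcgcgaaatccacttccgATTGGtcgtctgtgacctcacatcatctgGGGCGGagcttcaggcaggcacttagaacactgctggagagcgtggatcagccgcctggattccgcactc
4930538E20Rik: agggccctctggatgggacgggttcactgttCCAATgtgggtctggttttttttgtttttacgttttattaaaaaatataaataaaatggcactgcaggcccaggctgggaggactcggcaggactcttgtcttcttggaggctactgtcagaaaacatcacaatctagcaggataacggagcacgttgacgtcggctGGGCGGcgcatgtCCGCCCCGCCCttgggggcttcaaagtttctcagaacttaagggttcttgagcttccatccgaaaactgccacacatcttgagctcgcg
Gm30400: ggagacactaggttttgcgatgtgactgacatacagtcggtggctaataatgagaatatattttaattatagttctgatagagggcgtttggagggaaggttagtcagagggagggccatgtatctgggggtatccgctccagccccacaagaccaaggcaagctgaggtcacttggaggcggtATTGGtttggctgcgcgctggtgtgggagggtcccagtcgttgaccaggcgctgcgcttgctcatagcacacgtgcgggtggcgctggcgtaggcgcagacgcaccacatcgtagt
H2bc6: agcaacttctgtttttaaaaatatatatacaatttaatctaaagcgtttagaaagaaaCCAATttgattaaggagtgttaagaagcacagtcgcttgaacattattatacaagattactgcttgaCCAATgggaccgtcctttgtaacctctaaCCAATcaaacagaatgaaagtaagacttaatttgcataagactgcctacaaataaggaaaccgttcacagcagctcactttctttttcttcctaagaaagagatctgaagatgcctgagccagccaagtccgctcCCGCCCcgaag
The Dhcr7 and 4930538E20Rik windows held 3 copies of GGGCGG each, and the H2bc6 window held 1. CCAAT occurred 3 times in the H2bc6 window, 2 times in that of Dhcr7 and 1 time each in those of 4930538E20Rik and Gm30400. Of the 203 windows that overlapped an exonic region, 27.6% held GGGCGG and 28.1% held CCAAT, against 36.0% and 37.3% of all 31396 windows of the table. A match describes the letters and does not show that a factor was bound. Exon numbers, coding parts and the sequences of other exonic peaks were not analysed here.

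The lists held 17410 to 163610 peaks on these chromosomes, and replicate 1 had the longer list in every group. The number of reads behind each list is unknown here. Promoter peaks of PS and RS markers separated adult from P7 libraries, and those of spermatogonial markers did not. The 5 PS markers, genes of meiotic prophase such as Sycp3, Hormad1 and Spo11, had a promoter peak in 8 adult and in 0 to 4 P7 libraries. The 5 RS markers, such as Prm1 and Tnp1, had one in 6 to 8 adult and in 0 to 2 P7 libraries. The 6 spermatogonial markers had one in 3 to 8 adult and 5 to 8 P7 libraries, with sums of 34 in adult and 41 in P7. Among them Kit and Etv5 had one in 8 adult and 8 P7 libraries, and Stra8 in 5 of each. Somatic markers also differed. Promoter peaks of the 4 Sertoli markers were in 2 to 5 adult and 5 to 8 P7 libraries, and summed to 14 in adult and 28 in P7 libraries. The 3 peritubular markers had 2 to 3 adult and 7 to 8 P7 libraries and sums of 8 in adult and 23 in P7. For 3 endothelial markers the ranges were 0 to 2 adult and 0 to 8 P7 libraries, with sums of 3 in adult and 16 in P7. The sums were 2 in adult and 10 in P7 for 3 immune markers, and 2 in adult and 8 in P7 for 3 Leydig markers. Pecam1, Ptprc and Cyp11a1 had a promoter peak in 0 of 16 libraries. In these bulk libraries a changed mix of cells and a change within a cell type cannot be told apart, and the part of somatic cells in the results was not tested. Scml2, on chromosome X, had 0 exonic peaks in both genotypes, and its promoter peak was in 3 Scml2-KO and 6 wild-type libraries, which does not check the labels.

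Exons held a larger share of the peaks in adult germ cells than in P7 spermatogonia. The exonic share was 8.67% and 5.48% in PS Scml2-KO, 7.92% and 5.86% in PS wild type, 6.28% and 6.60% in RS Scml2-KO, and 5.86% and 8.38% in RS wild type. Among P7 libraries, Thy1 Scml2-KO had 4.66% and 4.33%, Thy1 wild type 4.74% and 4.34%, cKit Scml2-KO 5.37% and 4.19%, and cKit wild type 4.96% and 3.74%. The lowest adult library, PS Scml2-KO replicate 2 at 5.48%, lay above the highest P7 library, cKit Scml2-KO replicate 1 at 5.37%. The mean was 6.88 ± 1.25% in adult and 4.54 ± 0.502% in P7 libraries (SD, n = 8 each), a difference of 2.34 percentage points (adjusted p = 0.000622, two-sided exact permutation test). The test ran over all 12870 arrangements, and the raw p of 0.000155 is the smallest they can give. The p-value was adjusted by the Benjamini-Hochberg method over the 4 measures compared here: share, length, fold enrichment and position. Counting error was small beside the spread, with a Wilson 95% interval of 8.50 to 8.84% for PS Scml2-KO replicate 1 and of 3.90 to 4.50% for cKit Scml2-KO replicate 2, the shortest list.

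The class means of the exonic share were apart among the weaker peaks and close among the strongest, a difference between bins that was not tested. Each list was split into 4 equal bins by −log10 q, the caller's measure of significance. In the weakest bin the exonic share was 9.27 ± 2.40% in adult and 5.18 ± 0.851% in P7 libraries. In the next bin it was 8.50 ± 1.72% in adult and 5.03 ± 0.501% in P7, and in the one after 6.45 ± 1.71% in adult and 4.68 ± 0.917% in P7. In the strongest bin it was 3.31 ± 2.08% in adult and 3.28 ± 1.00% in P7 libraries, where promoter peaks made up 62.8% of the adult and 57.9% of the P7 peaks. When every list was cut to its 17410 peaks of highest −log10 q, the share was 4.38 ± 0.662% in adult and 3.51 ± 0.352% in P7 libraries (adjusted p = 0.0274, exact permutation test), and the groups overlapped. By stage it was then 4.81 ± 0.374% in PS, 3.96 ± 0.640% in RS, 3.60 ± 0.493% in cKit and 3.42 ± 0.158% in Thy1 (SD, n = 4 each). The overlap came from RS, at 3.15% to 4.53%, while PS libraries had 4.53% to 5.36% and P7 libraries 3.02% to 4.19%. With only peaks of −log10 q of 5 or more the adult and P7 means differed by 0.894 percentage points and no longer passed the test (adjusted p = 0.242, exact permutation test). The medians then ran the other way, 4.08% in adult and 4.27% in P7 libraries. The highest libraries at that setting were replicate 1 of PS Scml2-KO, RS Scml2-KO and PS wild type, at 7.52%, 6.09% and 5.94%. Leaving promoter peaks out of the total gave 10.7 ± 2.25% in adult and 6.82 ± 1.92% in P7 libraries (adjusted p = 0.0155, exact permutation test). Against introns alone, there were 29.8 ± 8.52 exonic peaks per 100 intron peaks in adult and 17.2 ± 5.95 in P7 libraries.

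**Figure D1:**
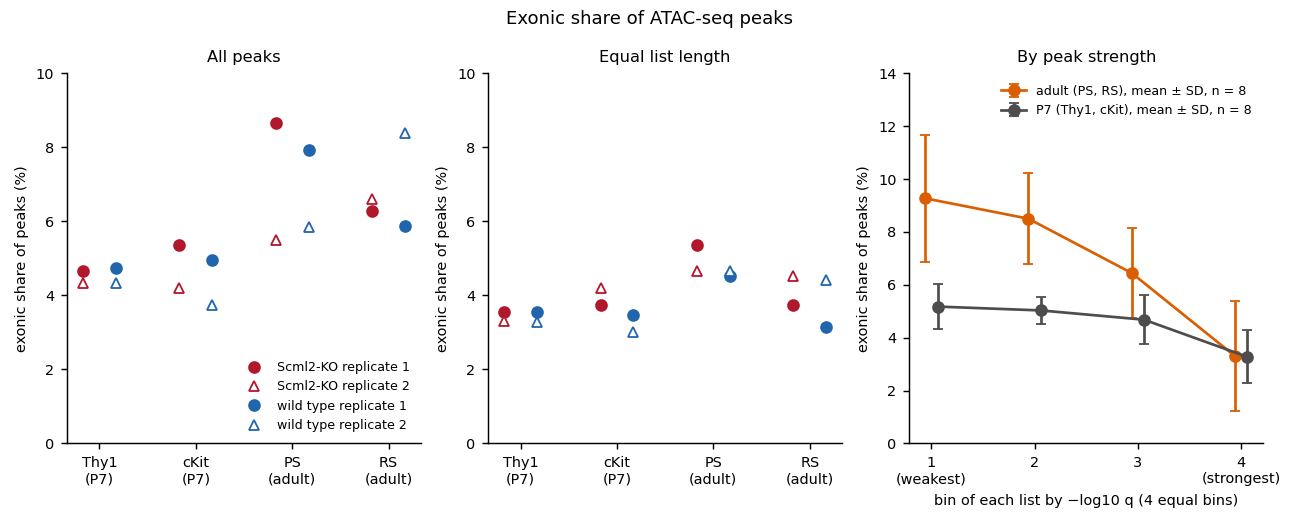
Exonic share of the peaks of each library in %, for all peaks and for lists cut to equal length, with the 4 stages on the x axis, filled circles for replicate 1 and open triangles for replicate 2, and the mean ± SD of 8 libraries per class by bin of −log10 q. The adult libraries lie between 5.48% and 8.67% in the first panel, all above the P7 libraries, while in the strongest bin the means are 3.31% in adult and 3.28% in P7.

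Between successive stages no difference in the exonic share passed the test. It was 4.57 ± 0.735% in cKit and 4.52 ± 0.214% in Thy1 (adjusted p = 0.857), 6.98 ± 1.55% in PS and 4.57 ± 0.735% in cKit (adjusted p = 0.114), and 6.78 ± 1.11% in RS and 6.98 ± 1.55% in PS (adjusted p = 0.943; SD and n = 4 each, exact permutation tests of 70 arrangements). The PS and cKit libraries did not overlap, but 4 against 4 libraries allow no raw p under 0.0286, so no adjusted p over 4 measures could pass 0.05 unless at least 2 of the other measures reached that value too. The share averaged 5.70 ± 1.48% in Scml2-KO and 5.72 ± 1.66% in wild-type libraries (SD, n = 8 each; p = 0.951, exact permutation within stages, 1296 arrangements). The genotype difference was -0.248 percentage points in adult and 0.194 in P7 cells, and the difference between these was not larger than the spread (exact permutation p = 0.688).

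Exonic peaks were short and of low enrichment, somewhat longer than intron peaks and close to them in enrichment. Their median length was 181 to 283.5 bp in adult and 220 to 289 bp in P7 libraries, against intron medians of 155 to 245 bp over all libraries. Over all libraries the medians averaged 244 ± 30.7 bp for exonic and 208 ± 23.7 bp for intron peaks. No library had a longer median for intron peaks, a difference that was not tested. The 90th percentile averaged 649 ± 122 bp in adult and 627 ± 76.1 bp in P7 libraries. The mean of the medians was 238 ± 33.8 bp in adult and 249 ± 28.3 bp in P7 libraries, which did not differ beyond the spread (adjusted p = 0.490, exact permutation test). RS libraries had the shortest exonic peaks, 212 ± 21.2 bp, against 264 ± 19.9 bp in PS. These 4 and 4 libraries did not overlap (adjusted p = 0.114, exact permutation test). Other peaks were shorter in RS too, and this was not tested. Intron medians averaged 189.5 ± 29.1 bp in RS and 215 ± 17.5 bp in PS, and those of all non-exonic peaks 246.5 ± 66.6 bp in RS and 311 ± 88.3 bp in PS. The fold enrichment over background is the authors' own value for each peak. The median fold of intron peaks averaged 4.65 ± 0.485 in adult and 5.08 ± 0.225 in P7 libraries, and that of promoter peaks 9.03 ± 1.94 in adult and 9.11 ± 1.54 in P7. The median for exonic peaks averaged 4.65 ± 0.412 in adult and 5.22 ± 0.224 in P7 libraries. Divided by the median of all other peaks of the same list, it was 0.889 ± 0.0987 in adult and 0.980 ± 0.0747 in P7 libraries (adjusted p = 0.121, exact permutation test). The other peaks include promoter peaks, which made up 11.97% to 63.39% of a list. With promoter peaks left out, the adult minus P7 difference in this ratio was -0.0413 (adjusted p = 0.296, exact permutation test), against -0.0916 with them. With promoter peaks kept, the ratio passed the test with only peaks of −log10 q of 5 or more (adjusted p = 0.0485, exact permutation). In Scml2-KO the median length averaged 254 ± 27.2 bp, against 233 ± 32.0 bp in wild type (adjusted p = 0.315, exact permutation). With only peaks of −log10 q of 5 or more this difference of 52.1 bp passed (adjusted p = 0.0432, exact permutation). Without that cut, intron medians also averaged higher in Scml2-KO, 215 ± 22.7 bp against 202 ± 24.3 bp in wild type. Those of all non-exonic peaks averaged 282 ± 57.4 bp in Scml2-KO and 258 ± 61.0 bp in wild type, and neither was tested.

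Exonic peaks were crowded towards the 3' end of the transcript. Position was taken as the distance of the peak's middle from the authors' transcript start over the transcript's length, 0 at the start and 1 at the end. The median position of exonic peaks was 0.746 to 0.824 over the 16 libraries, whereas that of intron peaks was 0.424 to 0.494. The last 20% of the transcript held 42.4% to 53.1% of the exonic peaks, against 15.3% to 19.6% of the intron peaks. Within 1 kb of the transcript's end lay 19.8% to 25.8% of the exonic peaks, against 0.161% to 0.772% of the intron peaks. A transcript ends in an exon, so the annotation itself sets part of this contrast. The lengths of exons along the transcript were not taken into account, and crowding beyond them was not tested. No exonic peak lay closer than 1052.5 bp to its start, and the rule behind the authors' region names is not stated in the sources used here. Counted once per peak, the transcripts of exonic peaks were also shorter, with medians of 19445 to 35775 bp per library. Those of intron peaks had medians of 87331.5 to 143122 bp. Transcripts with many peaks weigh more in these medians.

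The mean number of exonic peaks per 1000 peaks was higher in adult cells in each of 10 equal bins of the transcript, with larger ratios towards its end, and the bins were not tested. The ratio of adult to P7 means, in exonic peaks per 1000 peaks of a list, was 1.11 in bin 1. In bin 2 there were 2.18 in adult and 1.68 in P7 libraries, and in bin 5 there were 4.34 in adult and 2.97 in P7, a ratio of 1.46. The ratio was 1.70 in bin 9, with 10.9 in adult and 6.39 in P7 libraries, and 1.56 in bin 10, with 22.4 in adult and 14.4 in P7 libraries. Adult and P7 libraries did not overlap in bins 5, 6, 8 and 9. Intron peaks ran the other way near the start, with 26.0 per 1000 in adult and 36.3 in P7 libraries in bin 1, but the ranges of the classes overlapped in every bin. Their ratio of adult to P7 means rose too, from 0.717 in bin 1 to 1.022 in bin 9 and 1.102 in bin 10. The rise towards the end was thus not limited to exonic peaks. The median position of intron peaks was 0.464 to 0.494 in adult and 0.424 to 0.443 in P7 libraries, without overlap, which was not tested. The median position of exonic peaks was 0.800 ± 0.0169 in adult and 0.784 ± 0.0185 in P7 libraries, and the classes overlapped (adjusted p = 0.135, exact permutation). It was 0.772 ± 0.0178 in cKit and 0.797 ± 0.00786 in Thy1 libraries, which did not overlap (adjusted p = 0.114, exact permutation). Genotypes gave 0.791 ± 0.0233 in Scml2-KO and 0.793 ± 0.0148 in wild type (adjusted p = 0.951, exact permutation).

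**Figure D2:**
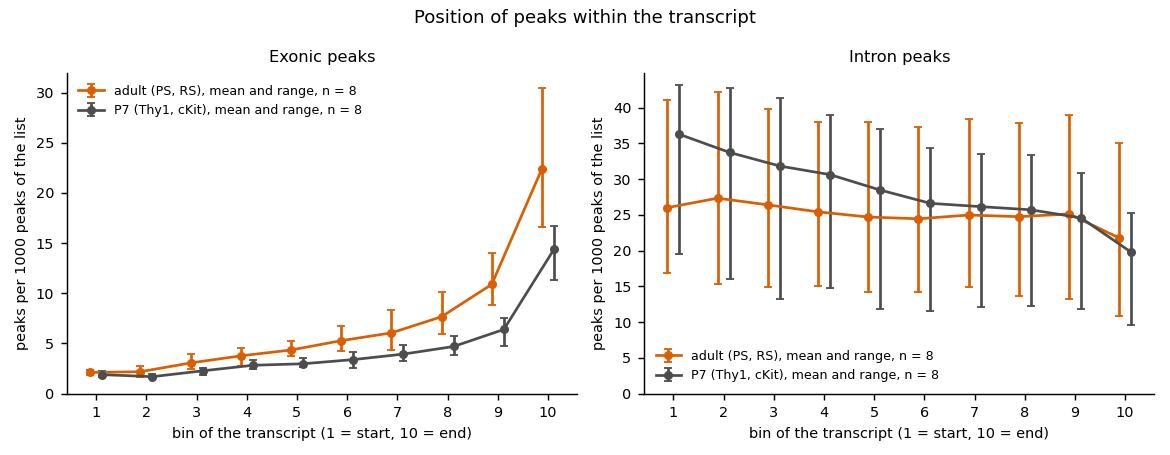
Peaks per 1000 peaks of a list by bin of the transcript, from its start (1) to its end (10), for exonic and for intron peaks; points are means of 8 libraries per class and bars run from the lowest to the highest library. Exonic peaks climb to 22.4 in adult and 14.4 in P7 libraries in bin 10, whereas intron peaks stay between 19.8 and 36.3.

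In 3 adult libraries a part of the exonic peaks sat in long runs within single genes, a pattern chosen for description after the values were seen. Genes with 5 or more exonic peaks numbered 260 in PS Scml2-KO replicate 1, 128 in PS wild type replicate 1 and 325 in RS Scml2-KO replicate 1, against 3 to 31 in the other 13 libraries. They held 20.1%, 14.2% and 22.0% of the exonic peaks of these libraries, and 1.86% to 6.83% in the others. Only 2 to 7 of these genes reached 5 peaks in both libraries of a group. Ttn, which codes for the giant sarcomere protein titin, had 104 exonic peaks in RS Scml2-KO replicate 1 and 0 to 4 in every other library. Dnah17, a dynein heavy chain of the sperm tail, had 28 in PS Scml2-KO replicate 1 and 34 in PS wild type replicate 1, and 0 to 4 elsewhere. Its intron peaks numbered 50 and 43 in these libraries and at most 4 elsewhere.

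Other genes of this kind were shared by both PS replicate 1 libraries. Tdrd1, a Tudor protein of the piRNA pathway, had 16 exonic peaks in the Scml2-KO and 8 in the wild-type library. Nktr had 15 with Scml2-KO and 9 in wild type, and Baz2a, a subunit of a nucleolar remodelling complex, 16 with Scml2-KO and 11 in wild type. Kcnq1ot1, the long noncoding RNA of an imprinted domain, had 26 in PS Scml2-KO, 8 in PS wild type and 20 in RS Scml2-KO, all replicate 1. Tln2, coding for talin 2, and Lpin1, coding for a phosphatidate phosphatase, had 20 and 17 in RS Scml2-KO replicate 1 and at most 2 elsewhere. Mroh2a and Sfi1 differed from these, with 7 to 23 and 5 to 18 exonic peaks in every library, in 5 and 3 merged exonic regions. The exonic peaks of the 643 genes that had 5 or more of them in any library were then left out, while the other peaks of these genes stayed in the total. The exonic share was then 4.37% to 6.72% in adult and 3.24% to 4.80% in P7 libraries. The means were 1.40 percentage points apart (adjusted p = 0.00497, exact permutation).

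**Figure D3:**
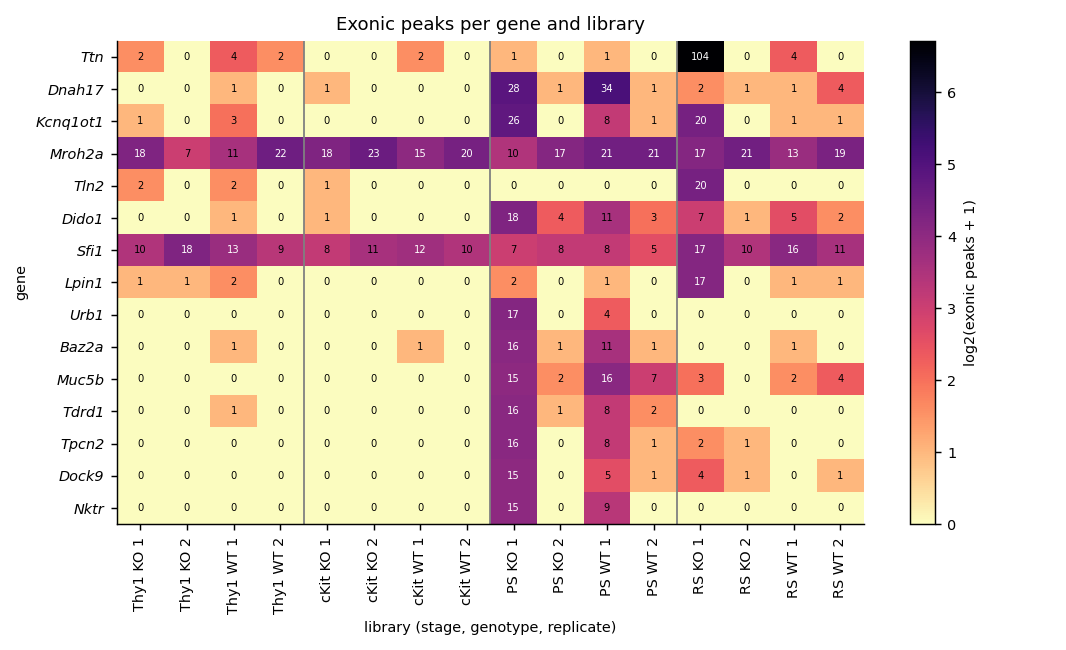
Number of exonic peaks of 15 genes in each library; the colour is log2(peaks + 1) and the number in each cell is the count. Ttn stands at 104 in RS Scml2-KO replicate 1, and Dnah17 at 28 and 34 in replicate 1 of PS Scml2-KO and PS wild type, while Mroh2a and Sfi1 are high in all libraries.

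How often an exonic peak recurred in the other library of its group followed the lengths of the lists. Recurrence is the share of a library's exonic peaks that an exonic peak of the other replicate overlapped by at least 1 bp. Replicate 1 gave 31.4% in Thy1 Scml2-KO and 40.6% in Thy1 wild type, 10.0% in cKit Scml2-KO and 24.0% in cKit wild type, 10.0% in PS Scml2-KO and 17.4% in PS wild type, and 10.5% in RS Scml2-KO and 31.3% in RS wild type. Replicate 2, with the shorter lists, gave 75.3% for Thy1 Scml2-KO and 81.0% for Thy1 wild type, 68.0% for cKit Scml2-KO and 83.2% for cKit wild type, 83.4% for PS Scml2-KO and 78.6% for PS wild type, and 62.2% for RS Scml2-KO and 34.1% for RS wild type. The median was 20.7% over the replicate 1 lists and 77.0% over the replicate 2 lists. RS wild type stood apart, since its shorter list shared only 34.1% of its exonic peaks. With lists of equal length the median over the 16 libraries was 53.0%, with a range of 33.2% to 66.3%. At that length the median was 51.6% for intron, 58.8% for intergenic and 90.3% for promoter peaks. Counting only peaks of the same region name, exonic peaks recurred less than intron peaks in 6 of 16 libraries. They recurred less than intergenic peaks in 11 of 16. The order depended on that rule. Counting overlap with any peak moved the exonic peaks of Thy1 Scml2-KO replicate 1 from 54.5% to 62.9% at equal length. Its intergenic peaks stayed at 56.1%. In RS wild type replicate 2 exonic peaks remained below intergenic peaks by that count, at 38.6% against 66.5%.

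**Figure D4:**
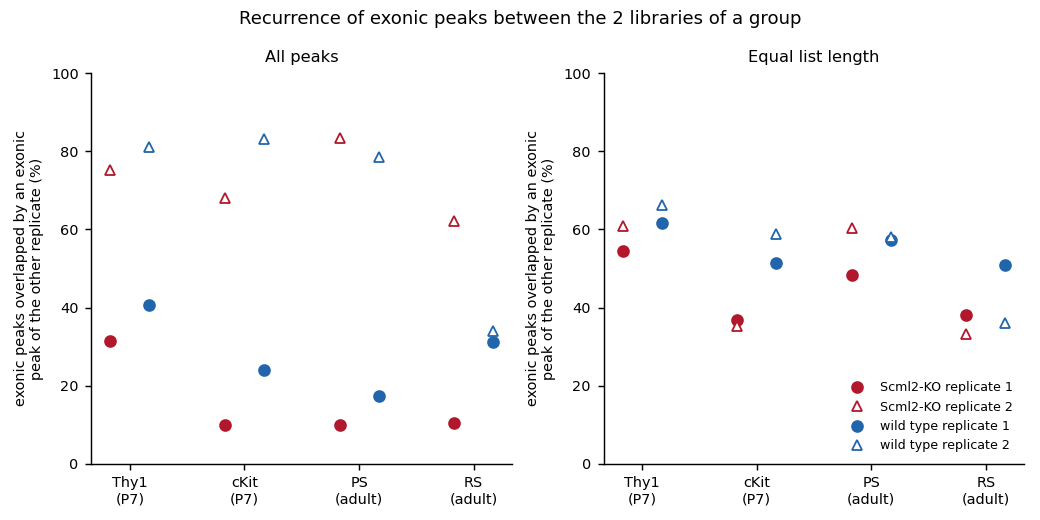
Share of the exonic peaks of a library overlapped by an exonic peak of the other replicate, in %, by stage, for all peaks and for lists of equal length. With all peaks the replicate 2 libraries of 7 groups reach 62.2% to 83.4% and all replicate 1 libraries stay at or under 40.6%; with equal lists all lie between 33.2% and 66.3%.

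The exonic regions were seldom shared by many libraries. Of the 21980 regions, which lay in 9908 genes, 12700 had a peak in 1 library only (57.8%), against 56.0% of the regions that were neither exonic nor promoter and 23.9% of promoter regions. In 8 or more libraries were 6.23% of the exonic regions, 3.77% of the other non-promoter regions and 51.4% of the promoter regions. The 120 exonic regions open in all 16 libraries were wide, with a median of 1454 bp against 240 bp for all exonic regions. Regions neither exonic nor promoter that were open in all 16 had a similar median of 1395 bp. Merging the peaks of more libraries can itself widen a region.

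Among these constant regions, the region of highest median fold enrichment, at chr11:3128741-3148961, was named for Pisd-ps1, a pseudogene, and Sfi1, a centrin-binding protein of the centrosome. It ran over 20221 bp with a fold of 16.3 to 62.9 in adult and 22.2 to 62.3 in P7 libraries. The other Sfi1 regions among the 10 strongest lay on chromosome 11 too. Near-identical copies can share reads there, so these values are uncertain. Lars2, the mitochondrial leucyl-tRNA synthetase, had a fold of 24.6 to 38.8 in adult and 35.8 to 54.3 in P7 libraries, at chr9:123461446-123462302, position 0.994 of the transcript. The adult and P7 ranges overlapped in both. Dhcr7, the enzyme of the last step of cholesterol synthesis, had 17.3 to 67.6 in adult and 13.1 to 33.2 in P7 libraries at chr7:143829419-143830578, the region whose start sequence is given above. Uggt2, a glucosyltransferase of glycoprotein folding, had 7.51 to 25.0 in adult and 19.9 to 51.8 in P7 libraries, and Clec11a, a growth factor of bone, 8.69 to 25.4 in adult and 16.8 to 42.6 in P7. The noncoding gene A330035P11Rik had a median fold of 24.6 over the 16 libraries. The 2 most enriched recurrent regions of each group were again from Lars2, Uggt2, Dhcr7, Pisd-ps1 and Sfi1.

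Between adult and P7 libraries, 411 of 2850 exonic regions tested were open in more adult libraries (14.4%) and 934 in more P7 libraries (32.8%). Over all regions tested, these shares were 14.8% for adult and 46.4% for P7. The test was a two-sided Fisher exact test of how many libraries had a peak, for regions open in 5 to 11 of the 16, with Benjamini-Hochberg adjustment over all 47411 of them. The exonic share called for adult was near that of all regions, and the exonic share called for P7 was below it. In all 8 libraries of a class and 0 of the other were 24 exonic regions for adult (0.842%, against 1.28% of all regions) and 52 for P7 (1.82%, against 2.6%). The number higher in adult cells depended on single libraries: it was 261 without PS Scml2-KO replicate 1, 253 without PS wild type replicate 1 and 254 without RS Scml2-KO replicate 1. With lists of equal length, 174 were higher in adult and 202 in P7 cells. The exonic regions higher in adult cells were wider, with a median of 942 bp against 582 bp for those higher in P7. Called regions neither exonic nor promoter had medians in the same order, 765 bp for adult and 553 bp for P7. Of the exonic regions higher in adult, 12.2% lay within 1 kb of the transcript's end, against 21.1% of those higher in P7. A RefSeq start window overlapped 17 of the 411 higher in adult (4.14%) and 17 of the 934 higher in P7 (1.82%). For called regions neither exonic nor promoter these shares were 6.97% for adult and 1.78% for P7.

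Among the exonic regions open in every adult and no P7 library, that of Ablim3, an actin-binding LIM protein, was the strongest. Its fold enrichment was 28.6 and 13.0 in PS Scml2-KO, 26.3 and 9.55 in PS wild type, 29.9 and 13.9 in RS Scml2-KO, and 18.3 and 16.2 in RS wild type, while the P7 libraries had no peak there. It lay at chr18:61799519-61801113, at position 0.992 of the transcript. Hivep1, a zinc finger factor, had a region near its end too, at position 0.992, with a fold of 5.63 to 20.3. Son, a splicing factor of nuclear speckles, had one of 4558 bp with a fold of 6.06 to 21.7. The other genes with such a region were Pigt, a subunit of the GPI transamidase, with 3.90 to 17.2, the noncoding gene Gm2061 with 4.33 to 29.6, Snd1, a Tudor and nuclease domain protein, with 4.33 to 15.6, and Bcl11a, a zinc finger repressor, with 5.98 to 29.6. They were joined by Sgip1, an adaptor of endocytosis, with 3.80 to 22.7, Ckmt2, a mitochondrial creatine kinase, with 3.80 to 19.3, and Rgma, a co-receptor for bone morphogenetic proteins, with 5.43 to 18.5. All 10 had an adjusted Fisher exact p = 0.0040 and were open in 4 Scml2-KO and 4 wild-type libraries.

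The strongest exonic regions open in every P7 and no adult library were in genes of several kinds. Cyp2s1, a cytochrome P450, had no peak in the adult libraries, while Thy1 Scml2-KO had a fold of 18.9 and 13.5, Thy1 wild type of 22.9 and 15.8, cKit Scml2-KO of 15.5 and 5.77, and cKit wild type of 13.1 and 7.71. The region lay at chr7:25802005-25803604, at position 0.991. Axl, a receptor tyrosine kinase near Cyp2s1 on chromosome 7, had a separate region with a fold of 6.29 to 18.1. Necab1, a neuronal calcium-binding protein, had 4.72 to 25.6, Abi3bp, a protein of the extracellular matrix, 5.24 to 18.9, and Ccdc105 6.82 to 17.8. Mmp25, a membrane-bound matrix metalloproteinase, had 5.24 to 18.7, and Csf1, the growth factor of macrophages, 5.24 to 19.9. Atp8a1, a phospholipid flippase, had 5.77 to 24.7, Ankrd66 4.72 to 16.9 and 1810062G17Rik 5.77 to 22.3. Adjusted Fisher exact p was 0.0040 for each. All 20 of these adult and P7 regions kept their call with lists of equal length and with −log10 q of 5 or more. They also kept it with summits within 150 bp joined and without any single library. These regions were picked for complete separation and high fold enrichment, which leaving out a library cannot undo. The checks are therefore no independent support.

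**Figure D5:**
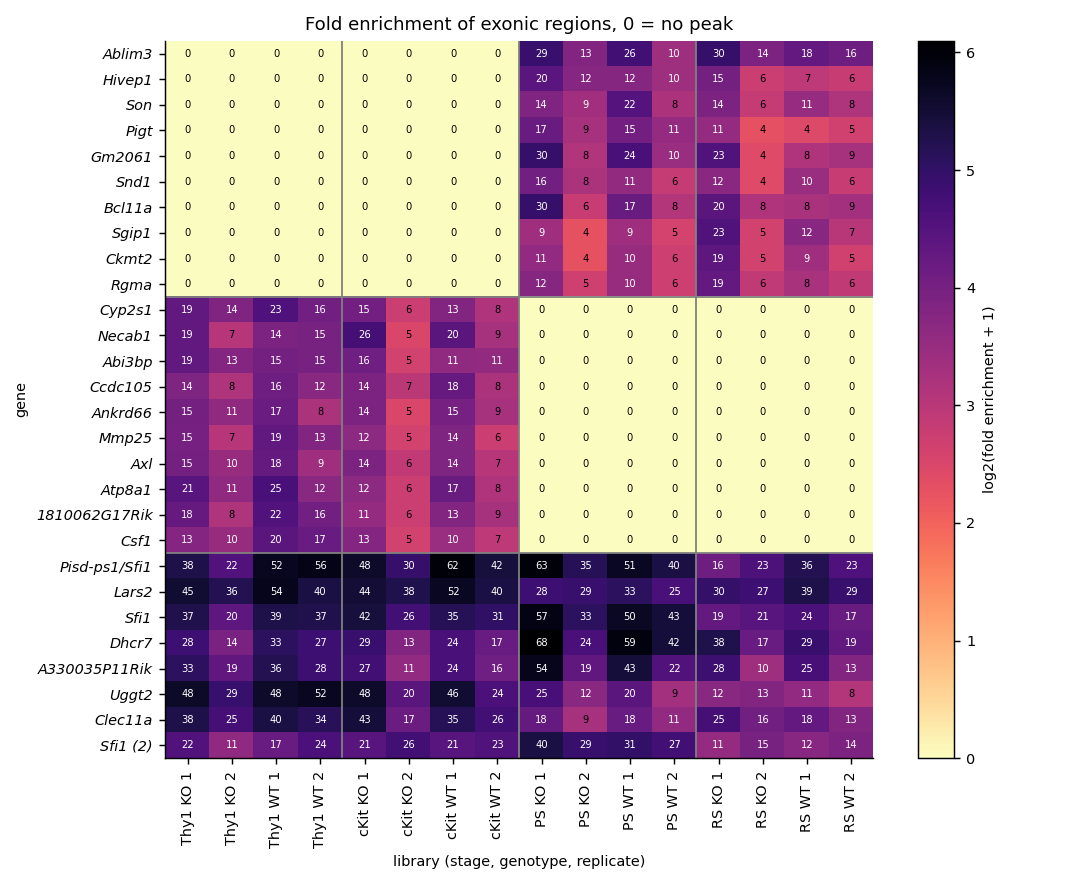
Fold enrichment of the 10 strongest exonic regions open in all adult libraries and no P7 library, of the 10 open in all P7 and no adult library, and of 8 of the 10 strongest open in all 16, by library; 0 means no peak, the colour is log2(fold + 1) and the numbers are rounded folds. The upper blocks have no cell above 0 outside their own class, and within it cKit Scml2-KO replicate 2 is the lowest P7 library for each of the 10 genes.

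Few exonic regions of the testis gene lists could be tested. Beside each count, 14.4% of all tested exonic regions were higher in adult and 32.8% in P7 cells. Of 29 meiotic prophase genes in the files, 15 had an exonic region and 2 were tested, and both were higher in P7 cells. They were Prdm9, the histone methyltransferase that places recombination hotspots, with a peak in 0 adult and 6 P7 libraries (adjusted Fisher exact p = 0.0199), and Tex15, with 0 adult and 5 P7 libraries (adjusted p = 0.0419). Of 4 tested regions of the piRNA pathway, 1 was called: Tdrd6, a Tudor protein of the chromatoid body, with 5 adult and 0 P7 libraries. The single region tested among 38 spermatid and sperm genes belonged to Crem, the transcription factor that switches on the spermatid program, with 6 adult and 0 P7 libraries. Among 28 Polycomb genes and SCML2 partners 2 regions were tested, and that of Ezh2, the H3K27 methyltransferase, had a peak in 0 adult and 5 P7 libraries. Of 19 regions of developmental regulators, those of Irx5 (7 adult, 0 P7 libraries) and Pax9 (7 adult, 1 P7) were higher in adult cells. Those of Otx1 (1 adult, 7 P7 libraries) and Zic1 (0 adult, 7 P7) were higher in P7 cells.

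Of 15 tested regions of the somatic lists, 1 was higher in adult (6.67%, against 14.4% of all tested exonic regions) and 5 in P7 cells (33.3%, against 32.8%). Of 3 tested regions of peritubular and smooth muscle genes, Myh11 (0 adult, 6 P7 libraries) and Pdgfra (0 adult, 5 P7) were higher in P7 cells. Of 5 endothelial regions, Eng (0 adult, 7 P7) and Flt1 (0 adult, 5 P7) were higher in P7. Of 4 Leydig and steroidogenic regions, Hsd17b3 (0 adult, 5 P7) was higher in P7 and Scarb1 (5 adult, 0 P7) in adult cells, and 0 of 4 Sertoli regions were called. The region of Nr5a1, a regulator of steroidogenic genes, is in both the Sertoli and the Leydig list. Stem and progenitor genes had 1 region tested with 0 called, and 0 regions of the differentiating spermatogonia and immune lists could be tested. The promoter marker counts of these somatic types, given above, also differed between the classes, and their part in these calls was not tested.

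Among gene families, the calls of clustered protocadherins were all for adult, while solute carriers, Zfp zinc fingers and collagens had calls of both kinds. These counts stand beside 14.4% for adult and 32.8% for P7 over all tested exonic regions. The 6 tested regions of clustered protocadherins, cell adhesion genes in tandem on chromosome 18, lay in different genes, and 5 were higher in adult and 0 in P7 cells: Pcdhb12 (6 adult, 0 P7 libraries), Pcdhgb5, Pcdha2, Pcdhgb6 and Pcdhgb8 (5 adult, 0 P7 each). Reads could be shared among members of this family, so the single genes are uncertain. Of 68 histone cluster genes only 1 had tested regions, the transcript named Hist1h2be, whose 3 regions were all higher in P7 cells, with peaks in 1 adult and 8 P7, 0 adult and 6 P7, and 0 adult and 5 P7 libraries. Of 52 solute carrier regions, 8 were higher in adult and 22 in P7 cells, led by Slc2a13, an inositol transporter, at a median fold of 15.0 in adult, and Slc1a6, a glutamate transporter, at 13.9 in P7. Of 38 Zfp zinc finger regions, 4 were higher in adult and 9 in P7 cells. Of 18 collagen regions, 4 were higher in adult and 7 in P7 cells, and Col6a4 had one of each. Of 7 forkhead regions, 0 were called for adult and 3 for P7, those of Foxp2, Foxo6 and Foxn2. Rps15a was called for P7 among 2 ribosomal protein regions, and 0 of 3 Hox regions were called. Olfactory receptors, with 562 genes in the files, had an exonic region in 3 of them and none tested.

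The steps between stages compared 4 with 4 libraries, and complete separation (a peak in 4 of 4 and 0 of 4) was counted. In cKit and not Thy1 there were 0 of 707 exonic regions open in 4 of the 8 libraries (0%, against 0.063% of all regions), and in Thy1 and not cKit 49 (6.93%, against 13%). In PS and not cKit there were 171 of 672 (25.4%, against 26.3%), and in cKit and not PS 105 (15.6%, against 23.9%). In RS and not PS there were 26 of 681 (3.82%, against 2.79%), and in PS and not RS 37 (5.43%, against 3.85%). Each such region has a raw Fisher exact p of 0.0286, and the lowest adjusted p was 0.219, 0.0569 and 0.430 for the 3 steps, so 0 regions were called at any. Single libraries moved these counts. With the shortest list, cKit Scml2-KO replicate 2, left out, there were 16 in cKit and not Thy1, and 460 in cKit and not PS. The first of these was 1 without Thy1 Scml2-KO replicate 1 and 3 without cKit wild type replicate 2. In Thy1 and not cKit, leaving out Thy1 Scml2-KO replicate 2 gave 257, Thy1 wild type replicate 2 gave 101, cKit Scml2-KO replicate 1 gave 112 and cKit wild type replicate 1 gave 90. In PS and not cKit there were 388 without PS Scml2-KO replicate 2 and 304 without PS wild type replicate 2. In PS and not RS there were 133 and 86 without these same libraries and 110 without RS Scml2-KO replicate 1. In RS and not PS there were 50 without PS Scml2-KO replicate 1, 48 without PS wild type replicate 1, 79 without RS Scml2-KO replicate 2, and 68 and 55 without RS wild type replicates 1 and 2.

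The 5 strongest regions of each step, none of them past the test at that step, are described with all libraries. In Thy1 and not cKit were Uqcrc1, a core subunit of respiratory complex III, whose fold was 13.8 and 4.77 with Scml2-KO and 11.5 and 7.09 in the wild type, Crcp, Ccrl1, a chemokine-binding receptor, and Aldh18a1, an enzyme of proline synthesis, none of which had a peak in adult libraries. Lhx9, a homeobox factor of the early gonad, was also among them, and had peaks of 9.97 to 22.7 in 4 of the adult libraries, all replicate 1. In PS and not cKit were Ablim3, Slc2a13, Matn4, a matrix protein, Gadl1 and Cux1, a homeobox factor. Matn4 had a fold of 20.8 and 10.9 in PS Scml2-KO and 15.5 and 13.6 in PS wild type, 4.92 in RS Scml2-KO replicate 1, and no peak in the other libraries. In cKit and not PS were Naaa, a lysosomal amidase, with a fold of 12.1 to 31.1 over the 8 P7 libraries and 3.78 in 1 RS library, Tmbim1, Hist1h2be, Fhl3 and Cyp2s1. All 5 were open in the 4 Thy1 libraries as well.

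Between RS and PS, some of the named regions were also open in spermatogonia. In RS and not PS were Hr, the corepressor hairless, with a fold of 9.84 and 10.8 in RS Scml2-KO and 5.54 and 10.1 in RS wild type, and Slc35c2, neither of which had a peak in another stage. Limch1, Lrrc16b and Prrt4 were also among them, but had peaks in 7, 7 and 8 of the P7 libraries, with folds of 4.11 to 14.5. In PS and not RS were Srms, a Src-like kinase, with a fold of 24.4 and 5.98 in PS Scml2-KO and 13.4 and 9.55 in PS wild type, Aldh3b1, an aldehyde dehydrogenase, with 14.6 and 8.15 in PS Scml2-KO and 17.6 and 7.54 in PS wild type, Kcnab2, a potassium channel subunit, and Agrn, which codes for agrin. Soat2, which esterifies cholesterol, had 7.61 to 21.8 in PS and 4.82 in 1 Thy1 library. Of these, Srms and Aldh3b1 overlapped the RefSeq start windows of Gm40033 and Gm42059.

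Between genotypes, 0 of 758 exonic regions able to reach the threshold were called (0%), as were 0 of 8487 of all regions (0%), by an exact conditional test that permutes genotype within stages, with Benjamini-Hochberg adjustment. At an unadjusted p under 0.05 there were 4 exonic regions, and of all regions 13 higher in Scml2-KO (0.153%) and 85 higher in wild type (1%). The exonic one higher in Scml2-KO was in Kirrel3, a cell adhesion protein, with a peak in 7 Scml2-KO and 1 wild-type library (exact p = 0.0139) and a fold of 3.61 to 7.95. Those higher in wild type were in Prdm13, a zinc finger factor of neurons, with 3 Scml2-KO and 8 wild-type libraries (exact p = 0.0278), Tfap2b, an AP-2 factor, with 0 Scml2-KO and 5 wild-type libraries (exact p = 0.0278), and Chsy3, an enzyme of chondroitin synthesis, with 1 Scml2-KO and 6 wild-type libraries (exact p = 0.0417). Each had an adjusted exact p of 1. Next in order were Socs5 (6 Scml2-KO, 2 wild type), Acoxl, Rftn2 and Ghrhr (5 Scml2-KO, 1 wild type each) for Scml2-KO, and Cdh18 (1 Scml2-KO, 6 wild type) for wild type, none of which passed an unadjusted p of 0.05.

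Within a stage, complete separation of the genotypes (2 libraries against 0) is given as counts without a p-value, since 2 against 2 libraries cannot reach the threshold. In Thy1 there were 25 exonic regions open in Scml2-KO (1.74%, against 1.93% of all regions, both among regions open in exactly 2 of the 4 libraries) and 204 in wild type (14.2%, against 14.4%). In cKit there were 9 in Scml2-KO (0.532%, against 0.321%) and 27 in wild type (1.59%, against 1.4%). In PS there were 40 in Scml2-KO (1.69%, against 2.02%) and 38 in wild type (1.61%, against 3.51%). In RS there were 226 in Scml2-KO (15.2%, against 14.9%) and 51 in wild type (3.44%, against 6.34%). List lengths differed between the genotypes in every stage, and their part in these counts was not tested. Thy1 Scml2-KO had 108184 and 50739 peaks, against 132760 and 73211 in Thy1 wild type, and cKit Scml2-KO had 89362 and 17410, against 81517 and 31617 in cKit wild type. PS Scml2-KO had 105173 and 21734 peaks, against 79285 and 24275 in PS wild type, and RS Scml2-KO had 163610 and 26914, against 51945 and 30929 in RS wild type.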

How the data were processed

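ATAC-seq peak lists of 16 libraries were analysed, 1 list per library. The submitters' processing notes name Bowtie 1.1.1, MACS2 2.1.0.20140616 and build mm10. Neither the peak caller's options nor the rule behind the region names is stated in these sources. Each line of a deposited list is 1 summit with its coverage (pileup), its fold enrichment over background and the −log10 p and −log10 q of the authors' caller, per the file headers, beside the nearest transcript and a region name. Samples were grouped by their titles, whose replicate numbers differ from those in the names of the deposited files.

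Lines with equal coordinates were joined into 1 peak, which took the highest fold enrichment of its summits. Chromosomes 1 to 19 were used. Read depth is unknown, so precision is given by the spread between libraries and, for shares, by Wilson 95% intervals, which cover counting error only. Library values went into exact permutation tests (two-sided) and regions into Fisher exact tests, adjusted by the Benjamini-Hochberg method and called at 0.05 (Python 3.11.15, scipy 1.17.1). The test of regions was checked on simulated data. Named regions were those separated completely between classes or stages, or open in all libraries, in order of median fold enrichment, and for genotype those with the largest difference in libraries. The alternatives were lists of equal length, a −log10 q of 5 or more, promoter peaks left out, another joining of summits, the replicate number as a block and each library left out. Members, lists and rules were chosen with earlier results of these data known. Some items that met these rules are not reported here. RefSeq tables of GRCm38.p6 supplied start windows. Of 16043 authors' starts with a matching symbol, 14382 (89.6%) lay inside a window.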

Additional observations from a re-analysis of the deposited data

Results flagged for a closer look

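The highest or lowest library stood far from the rest of its group, by Dixon's ratio, for 5 of the values examined in 30 groups of libraries. Several of the values are tied, and Thy1 wild type replicate 1 was flagged in both the Thy1 and the P7 group. The count of 5 can therefore not be set against a chance rate. The median length of exonic peaks was 289 bp in cKit Scml2-KO replicate 1, against 220 bp in each of the other 3 cKit libraries. The fold enrichment of exonic over other peaks was 1.125 in Thy1 WT replicate 1, far above the other 3 Thy1 libraries and above all other P7 libraries, which reached at most 1. The same ratio was 1 in cKit Scml2-KO replicate 1, the highest of the cKit libraries. The share of exonic peaks in genes with 5 or more of them was 5.35% in cKit Scml2-KO replicate 2, the shortest list, the highest of the 8 P7 libraries.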

How the results depend on the processing

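The mean exonic share stayed higher in adult than in P7 libraries under every alternative run. At −log10 q of 5 or more the median over libraries was lower in adult, 4.08% against 4.27% in P7. The difference of the means missed the threshold at that setting (0.894 percentage points). Of the alternatives chosen after seeing the data, it missed with wild type only (2.56), Scml2-KO only (2.12), replicate 1 only (2.25) and replicate 2 only (2.43), where 4 against 4 libraries allow no raw p under 0.0286, and with equal lists without promoter peaks (1.61). At −log10 q of 5 or more the adult minus P7 length was 42.9 bp, of opposite sign, and the fold ratio -0.0786, now past the threshold, as was the Scml2-KO minus wild-type length of 52.1 bp. The share then differed by -0.541 for cKit minus Thy1 and 0.328 for Scml2-KO minus wild type, both of opposite sign, and the fold ratio by 0.0179 for cKit minus Thy1. With equal lists, signs turned for the fold ratio of cKit minus Thy1 (0.0746) and RS minus PS (0.0136), and for the share (0.380) and position (0.00395) of Scml2-KO minus wild type. Without promoter peaks they turned for the fold ratio of PS minus cKit (0.025) and the share of Scml2-KO minus wild type (0.562). The genotype effect on the share, adult against P7, was 0.0129 with equal lists and 0.991 at −log10 q of 5 or more. None of these turned values had passed a test.

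The labels do not say what a replicate number marks. Deviations of same-numbered libraries correlated at -0.180 to 0.453 over 28 pairs of groups, above 0.1 in 7. Between the genotypes of a stage they correlated at 0.0960 to 0.453, above 0.1 in 3 of 4 stages, so pairing was not taken as given. With the replicate block the fold ratio (-0.0916) and position (0.0155) of adult against P7 passed, each with an adjusted exact permutation p of 0.0473, and the share kept its call (adjusted exact permutation p = 0.00163). By genotype the block left 69 regions able to reach the threshold, of which 0 were called by the exact test and 21 had an unadjusted p under 0.05.

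Exonic regions higher in adult numbered 174 with equal lists, 192 at −log10 q of 5 or more and 228 where every peak had to be exonic, and those higher in P7 202, 540 and 564. Regions open in Thy1 and not cKit numbered 8, 30 and 29 in the same order, and those in cKit and not Thy1 4 with equal lists and 1 at −log10 q of 5 or more. Where every peak had to be exonic there were 94 in PS and not cKit, 55 in cKit and not PS, 17 in RS and not PS and 21 in PS and not RS. At −log10 q of 5 or more, 40 were open in cKit and not PS and 10 in RS and not PS, and with equal lists 110 in PS and not RS. The causes were not tested.

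Without single libraries the share differed by -0.220 to 0.322 for cKit minus Thy1, -0.737 to 0.357 for RS minus PS and -0.451 to 0.352 for Scml2-KO minus wild type, and the genotype effect across classes by -1.08 to 0.0153. The fold ratio differed by -0.0620 to 0.0149 for PS minus cKit and -0.0675 to 0.00946 for RS minus PS, and position by -0.00655 to 0.00461 for Scml2-KO minus wild type. Regions numbered 253 to 447 higher in adult, 0 to 16 in cKit and not Thy1, 49 to 257 in Thy1 and not cKit, 170 to 388 in PS and not cKit, 102 to 460 in cKit and not PS, 28 to 79 in RS and not PS, and 37 to 133 in PS and not RS. The length of the shortest list in a group limits which regions can be open in all its libraries.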
